A study of Mus musculus with 6 samples.

Results

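The 10 immediate early genes described here are Fos, Fosb, Jun, Junb, Jund, Egr1, Ier2, Atf3, Nr4a1 and Dusp1. They were chosen by name, with earlier results of these data known, and 10 of 10 were found among the 31054 features of the single-cell matrices. Lungs came from 6 male C57BL/6 mice of 21 months, 1 library per mouse. The 3 mice labelled p16-DTR carried p16-CreERT2 and R26-LSL-DTR, in which a tamoxifen-activated Cre under the control of p16 switches on a diphtheria toxin receptor, and the 3 control mice carried p16-CreERT2 alone. All mice were injected with tamoxifen on 5 days and, after 2 weeks, with diphtheria toxin on 5 days, and recovered for 2 weeks, so the Cre allele and both agents were shared by the control mice. Lungs were digested with Liberase at 37 °C for 1 hour, and 20000 sorted CD45-negative and 9000 CD45-positive cells were mixed for each library.

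Immediate early genes are transcribed within minutes of a stimulus, from factors already present in the cell, and their transcripts are short-lived. Fos and Jun family proteins pair through leucine zippers into the AP-1 transcription factor. Growth factors, stretch, cytokines and cell injury induce these genes in lung endothelium, epithelium and fibroblasts, and warm enzymatic digestion of tissue is known to induce them as well. Every cell here passed through that digestion, so levels in the intact lung and levels added during digestion cannot be told apart.

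Libraries held 13482 to 17332 barcodes and 254200305 to 344421685 UMIs (unique molecular identifiers, counted molecules), and 12557 to 16227 cells were retained. Median depth was 16879 to 18332 UMIs per cell and the median mitochondrial share 1.19% to 1.52%. Of 93313 distinct barcodes, 1055 occurred in more than 1 library. Between 77.9% and 82.6% of filtered cells fell into 20 classes gated on marker genes, with at least 50 cells of each class in each library. Every class had 2 to 6 of its own markers among the 10 genes that most set it apart, none of another class and no gene of the 10. The gate used these same markers, so this describes the gate and is no separate check of the class names. Alveolar type 1 cells were shallow, with library medians of 1230 to 2052 UMIs. Cdkn2a, the p16 gene that drives the ablation, was at 6.94, 8.45 and 7.29 UMIs per 1000000 (CPM) in the p16-DTR-labelled libraries and at 1.21, 2.65 and 2.80 in the controls. Its level was thus higher in the p16-DTR-labelled libraries. A level over a library also depends on its mix of cells, and whether Cdkn2a-expressing cells were lost was not tested. Every direction below holds for the libraries as labelled.

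Promoters are shown first, and their part in the group differences below was not tested. RefSeq promoters of GRCm38.p6 were found for 8 of the 10 genes, all but Egr1 and Ier2. The sequence TGACG, the core of the cyclic AMP response element to which CREB and ATF proteins bind, was searched on both strands in 300 bases (250 before the start site and 50 after). It was present in 6 of these 8 promoters, in Fos, Fosb, Junb, Atf3, Nr4a1 and Dusp1, and in 20.8% of 32851 promoters. The full element TGACGTCA, which contains the core on both strands, was in the Dusp1 promoter at −143 to −136, and in 1.79% of all. No match of the AP-1 sequence TGANTCA (7.81% of promoters) or of the CArG box bound by serum response factor (1.63%) was in the 8 windows. Bases beyond these windows and the promoters of Egr1 and Ier2 were not searched, so sites there are not excluded. The windows of 4 genes are given, for 3 genes called lower in a class below and for Dusp1, whose differences had the other sign in most classes. Each runs over the 250 bases before the start site, 5′ to 3′ on the strand of the gene, with TGACG or its reverse complement in capitals. Start sites are those of RefSeq. The GENCODE genes of Nr4a1 and Dusp1, whose positions are given further on, begin upstream of these, so both windows lie within the GENCODE gene. So does the window of Atf3. The 250 bases before the RefSeq start of Jund end at 70697738, while its GENCODE gene begins at 70698949.
Fos, chr12:85473640-85473889, plus strand: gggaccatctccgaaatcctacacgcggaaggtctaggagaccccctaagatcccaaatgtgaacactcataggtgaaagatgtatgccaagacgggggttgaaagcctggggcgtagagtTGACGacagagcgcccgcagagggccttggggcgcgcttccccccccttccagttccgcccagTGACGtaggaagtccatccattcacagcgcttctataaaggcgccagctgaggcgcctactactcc
Junb, chr8:84978749-84978998, minus strand: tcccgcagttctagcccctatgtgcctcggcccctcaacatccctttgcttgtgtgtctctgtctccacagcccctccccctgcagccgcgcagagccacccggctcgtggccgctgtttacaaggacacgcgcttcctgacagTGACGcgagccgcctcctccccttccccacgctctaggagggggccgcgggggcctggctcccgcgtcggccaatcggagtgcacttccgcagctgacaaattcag
Nr4a1, chr15:101266596-101266845, plus strand: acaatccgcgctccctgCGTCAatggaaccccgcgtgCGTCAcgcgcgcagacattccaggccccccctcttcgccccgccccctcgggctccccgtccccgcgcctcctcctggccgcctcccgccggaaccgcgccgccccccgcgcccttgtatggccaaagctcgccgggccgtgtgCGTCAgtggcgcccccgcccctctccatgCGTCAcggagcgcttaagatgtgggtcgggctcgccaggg
Dusp1, chr17:26508473-26508722, minus strand: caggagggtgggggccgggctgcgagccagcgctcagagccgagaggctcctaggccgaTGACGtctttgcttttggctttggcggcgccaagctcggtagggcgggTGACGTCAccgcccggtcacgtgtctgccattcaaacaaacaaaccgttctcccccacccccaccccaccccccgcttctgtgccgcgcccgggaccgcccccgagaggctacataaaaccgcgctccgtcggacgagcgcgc
The core stood at −129 and −66 before Fos, at −106 before Junb, and at −233, −213, −69 and −40 before Nr4a1. These matches are a description of letters and not of bound sites.

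All levels are UMIs per 1000000 UMIs of the class in a library (CPM), and they compare 1 gene across classes, not genes with each other. The Fos genes encode the partners that cannot pair with themselves. Fos (ENSMUSG00000021250, chromosome 12, 85473890 to 85477273, GRCm38) was highest in peribronchial fibroblasts, at 3619 ± 451 CPM (SD, n = 6), and lowest in natural killer cells, at 203 ± 35.5. Between these ends the 6-library ranges of neighbours in the order overlapped in all 19 neighbouring pairs, so the order is a gradient. Fosb (ENSMUSG00000003545, chromosome 7, 19302696 to 19310051) was highest in adventitial fibroblasts (1039 ± 174) and lowest in natural killer cells (73.0 ± 27.8).

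Jun proteins pair with Fos or with each other. Jun (ENSMUSG00000052684, chromosome 4, 95049034 to 95052222) ran from 2699 ± 475 CPM in peribronchial fibroblasts to 95.8 ± 11.0 in neutrophils, and the range of neutrophils did not overlap that of CD8 T cells, the next class. Junb (ENSMUSG00000052837, chromosome 8, 84974484 to 84978718) went from 3967 ± 561 in peribronchial fibroblasts to 121 ± 22.6 in alveolar type 1 cells. It was second highest, at 3154 ± 238, in the neutrophils in which Jun was lowest. Jund (ENSMUSG00000071076, chromosome 8, 70698949 to 70700616), the constitutive Jun protein, was the most even, with 1218 ± 87.0 CPM in neutrophils and 511 ± 44.9 in pericytes, a ratio of 2.38.

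Egr1 (ENSMUSG00000038418), a zinc finger factor induced through serum response factor, varied most between classes, by 156-fold. It had 5110 ± 737 CPM in peribronchial fibroblasts, above every library of the next class, adventitial fibroblasts, at 3285 ± 543. Then came lymphatic endothelial cells (1925 ± 588), alveolar fibroblasts (1598 ± 340), venous (1176 ± 563) and arterial (871 ± 463) endothelial cells. Neutrophils (546 ± 104), general capillary endothelial cells (518 ± 285), ciliated cells (497 ± 118), aerocytes (448 ± 177), alveolar type 2 cells (441 ± 85.7) and pericytes (350 ± 153) formed the middle of the order. Alveolar type 1 cells (144 ± 66.9), gamma-delta T cells (130 ± 53.4), classical monocytes (98.6 ± 23.9), CD4 T cells (87.5 ± 45.5), B cells (83.3 ± 23.7), nonclassical monocytes (61.6 ± 18.8), natural killer cells (44.2 ± 12.4) and CD8 T cells (32.8 ± 7.47) were at the low end. After the first pair, the ranges of all neighbours in this order overlapped.

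Ier2 (ENSMUSG00000053560, chromosome 8, 84661331 to 84662852), an immediate early nuclear protein, ran from 1176 ± 176 CPM in peribronchial fibroblasts to 17.3 ± 6.95 in alveolar type 1 cells. Atf3 (ENSMUSG00000026628, chromosome 1, 191170296 to 191218039), a stress-induced leucine zipper repressor, was at 648 ± 154 in peribronchial fibroblasts and 11.4 ± 2.97 in CD8 T cells. Nr4a1 (ENSMUSG00000023034, chromosome 15, 101254269 to 101274795) encodes an orphan nuclear receptor that is required for nonclassical monocytes. Those monocytes had the highest level, 1233 ± 80.1 CPM, with no overlap with peribronchial fibroblasts at 868 ± 181, and alveolar type 1 cells the lowest, 26.3 ± 6.31. Dusp1 (ENSMUSG00000024190, chromosome 17, 26505590 to 26562128), a phosphatase that switches off MAP kinases, was highest in neutrophils, at 2465 ± 353, and lowest in alveolar type 2 cells, at 177 ± 22.6. Peribronchial fibroblasts thus had the highest mean for 6 of the 10 genes, but of these only Egr1 and Ier2 had ranges apart from the next class. For Atf3 the next class, classical monocytes, was level with them at 643 ± 154. The fibroblast, neutrophil and monocyte ends of the order differed by gene.

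**Figure D1:**
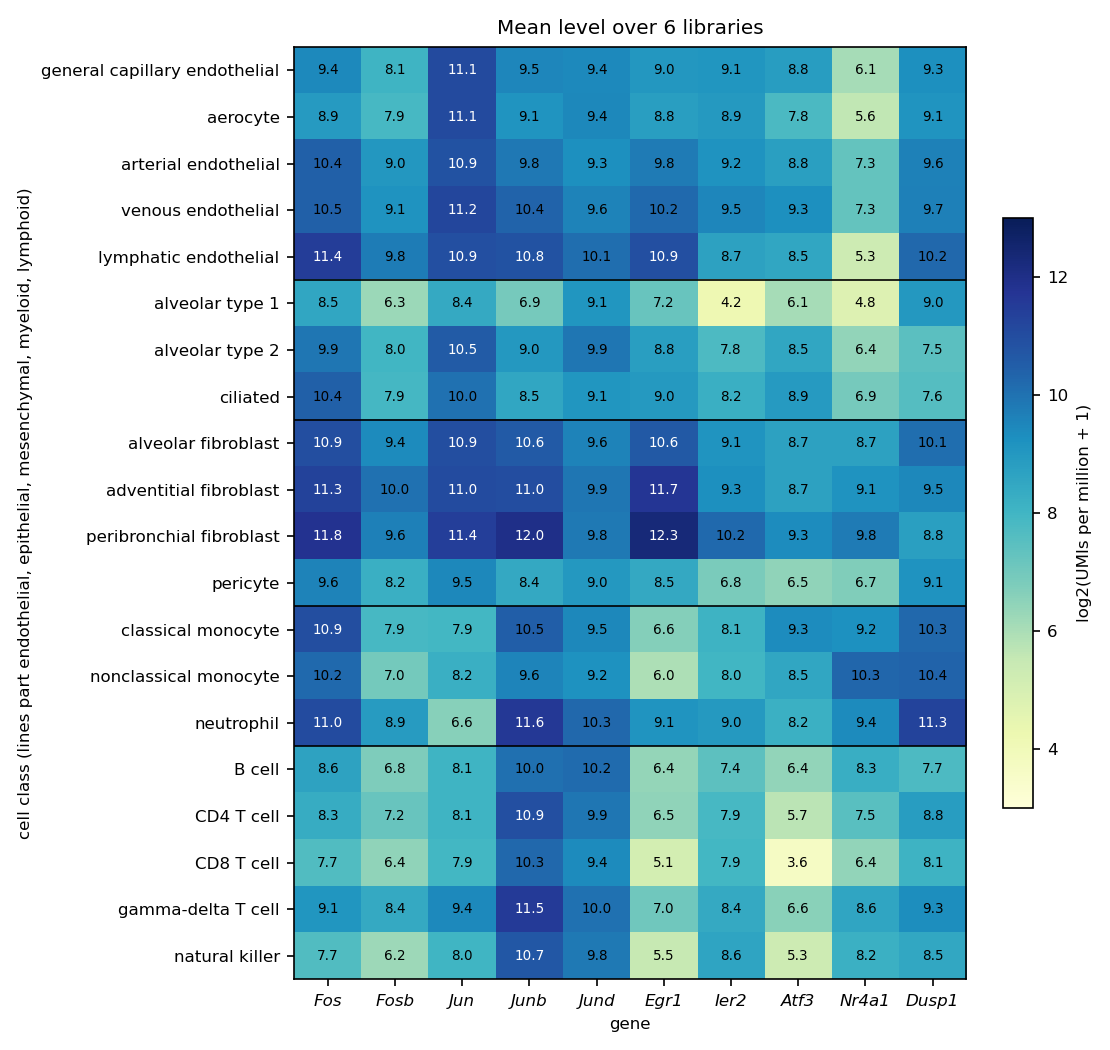
Mean level of the 10 genes in 20 cell classes over 6 libraries, as log2(CPM + 1), with classes in rows by lineage and genes in columns. Egr1 spans the widest range of classes (156-fold) and Jund the narrowest (2.38-fold).

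Across the 20 classes, levels of Fosb and Egr1 had a Pearson correlation of 0.91 and those of Fos and Atf3 of 0.87, while Jun and Nr4a1 were at −0.26. Among 10485 genes, those most like Fos were Zfp36 (0.880), Atf3 (0.866), Fosb (0.858), Pde7b (0.857) and Alpk1 (0.844). The 5 most like Jun were 2510009E07Rik (0.927), Dst (0.924), Cyp2j6 (0.920), Daam1 (0.916) and Gm26802 (0.915), none of them an AP-1 gene. These are descriptions over classes that share libraries and differ in depth.

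The design asks how the lung differs when p16-high cells were targeted for removal. Over all cells together, none of the 10 genes was called, where called means an adjusted p under 0.05 in the edgeR quasi-likelihood test over all genes. The background was 0 of 21491 genes (0%). An unadjusted p under 0.05 was found for 3 of the 10, all lower (12.4% of all genes), and DESeq2 called 1, Egr1, lower (5.94% of all genes). Egr1 had 752, 732 and 610 CPM in the p16-DTR-labelled libraries and 1614, 985 and 1182 in controls, a log2 change of −0.80 (edgeR adjusted p = 0.140, standard error 0.20). All 3 p16-DTR-labelled libraries were below all 3 controls. Such separation downward was seen for 5 of the 10 genes (Jun, Egr1, Ier2, Atf3 and Nr4a1) and for 22.4% of all genes. Libraries differed in cell make-up, which this sum includes, so the comparison was repeated within each class.

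Within classes, 12 of the 200 gene and class pairs were called, which is 6.00%, against 0.834% of all 235736 tests of the 20 fits. The genes were chosen with earlier results of these data known, so these shares are a description and no independent test of the set. All 12 called pairs were lower in the p16-DTR-labelled libraries, a direction in which 0.492% of all tests were called. The p16-DTR-labelled libraries lay below controls without overlap in 64 of 200 pairs (32.0%, against 11.7% of all tests) and above without overlap in 17 (8.50%, against 7.89%). Of the 200 log2 fold changes, 130 were negative, and the median was −0.18 where that of all tests was 0.00. The count of 12 fell to 6 without p16-DTR replicate 3 and to 6 without control replicate 3, and rose to 18 without control replicate 2. The share of all tests called was 0.195%, 0.422% and 0.571% in those fits.

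**Figure D2:**
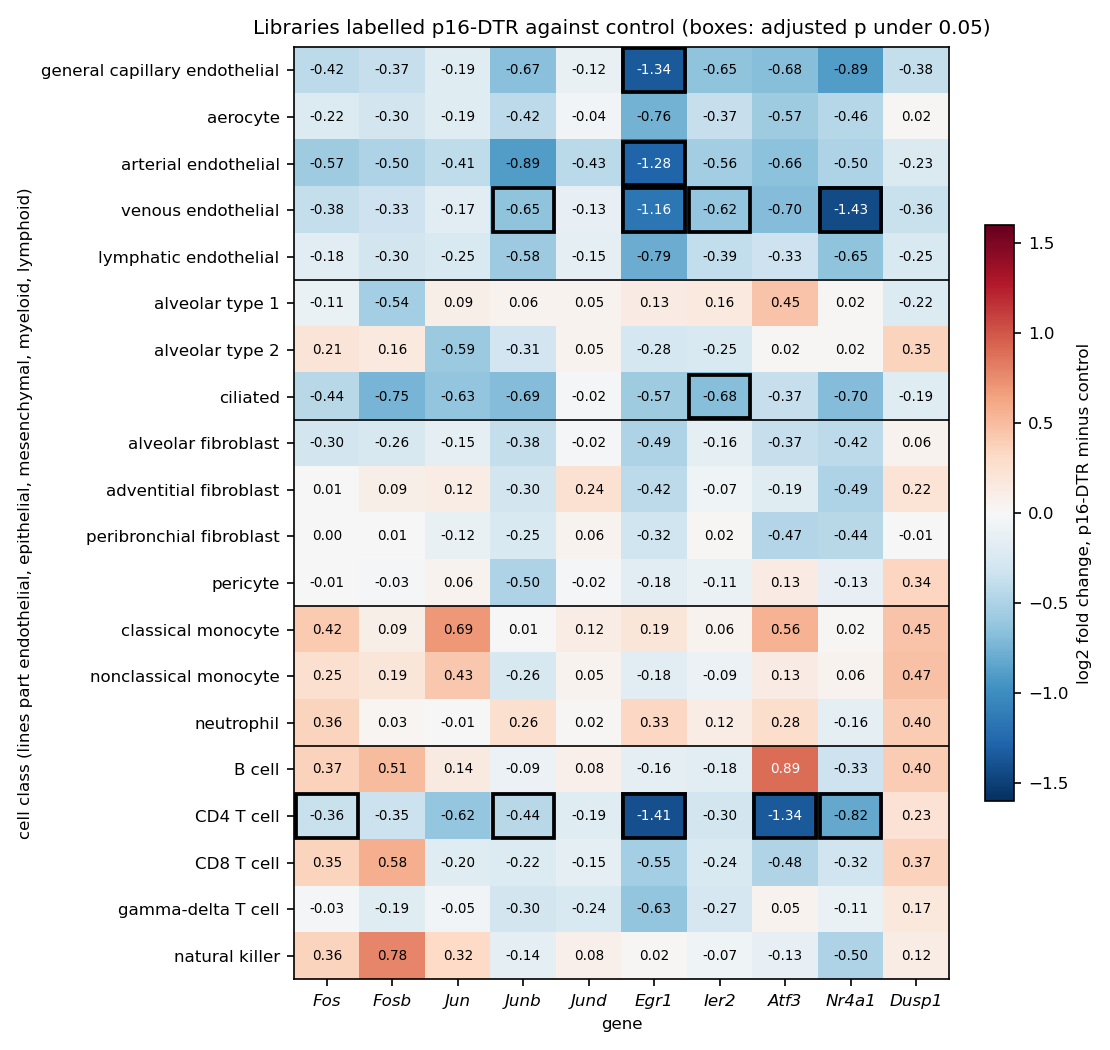
Log2 fold change of each gene in each class, p16-DTR-labelled libraries minus controls (n = 3 each), with blue for lower, red for higher and a box for an adjusted p under 0.05. The 12 boxes are all blue, 6 of them in endothelial classes and 5 in CD4 T cells, and Dusp1 is the column with most red cells.

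Endothelial classes held 6 of the 12 calls. In their 5 classes, 49 of 50 log2 fold changes were negative, with a median of −0.42, 29 pairs were below without overlap, and none was above. Of all tests in these classes 14.1% were below and 8.59% above without overlap. Averaged over the 10 genes, endothelial log2 levels in the p16-DTR-labelled libraries deviated from the 6-library mean by −0.41, −0.14 and −0.23, and controls by 0.25, 0.06 and 0.46. Control replicate 2 was the nearest to the other group.

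Egr1 was called in 3 endothelial classes. In venous endothelial cells it had 557, 793 and 799 CPM in the p16-DTR-labelled libraries and 2050, 1325 and 1533 in controls. Every p16-DTR-labelled library was below every control, and the log2 fold change was −1.16 (edgeR adjusted p = 0.0176, standard error 0.18). The call was lost in 1 of 6 fits that left out a library, without p16-DTR replicate 3 (adjusted p = 0.0649). It was also lost with the replicate number as a block (adjusted p = 0.0893).

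General capillary endothelial cells were a class of 2613 to 3859 cells per library, and there Egr1 had 240, 344 and 278 CPM against 852, 514 and 879. Groups did not overlap, and the log2 fold change was −1.34 (edgeR adjusted p = 0.0388, standard error 0.21). In arterial endothelial cells, a class of 98 to 160 cells per library, its CPM was 406, 640 and 469 against 1394, 841 and 1475. The log2 fold change was −1.28 (edgeR adjusted p = 0.0386, standard error 0.21). With 1 library left out these calls held in 2 and 1 of 6 fits, with adjusted p up to 0.122 and 0.170, while the log2 fold changes stayed between −1.54 and −1.13. With the replicate number as a block neither was called (adjusted p = 0.101 and 0.110). The arterial call was also lost with a stricter gate margin (adjusted p = 0.156) and with two-lineage cells kept (0.0508). In aerocytes and lymphatic endothelial cells, Egr1 was not called (log2 fold changes −0.76 and −0.79, adjusted p = 0.105 and 0.0678), though groups did not overlap in either.

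Nr4a1 in venous endothelial cells gave the smallest p of the 200 pairs. The p16-DTR-labelled libraries had 86.4, 88.6 and 73.8 CPM and the controls 238, 221 and 226. The 2 groups were tight and far apart, with means of 82.9 ± 7.99 and 228 ± 8.82 (SD, n = 3 each), a log2 change of −1.43 (edgeR adjusted p = 8.06e-04, standard error 0.09). This call held in 6 of 6 fits without a library and in all 10 other alternatives. In general capillary, arterial and lymphatic endothelial cells Nr4a1 was below without overlap but not called, with log2 fold changes of −0.89, −0.50 and −0.65.

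Junb and Ier2 were called in venous endothelial cells as well. Junb had 887, 1100 and 1092 CPM against 1824, 1454 and 1634 in controls, a log2 change of −0.65 (edgeR adjusted p = 0.0236, standard error 0.11). For Ier2 the values were 514, 601 and 588 against 989, 771 and 899, and the log2 fold change was −0.62 (edgeR adjusted p = 0.0222, standard error 0.11). Neither gene's groups overlapped. Their calls held in 2 and 3 of 6 fits without a library, the highest adjusted p being 0.0818 and 0.0870, both without p16-DTR replicate 3. Adjusted over all 20 classes together, neither was called (adjusted p = 0.0592 and 0.0560), nor with the replicate number as a block (0.104 and 0.0991). Backgrounds differed by class: 3.54% of genes were called in venous, 1.31% in general capillary and 0.162% in arterial endothelial cells.

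**Figure D3:**
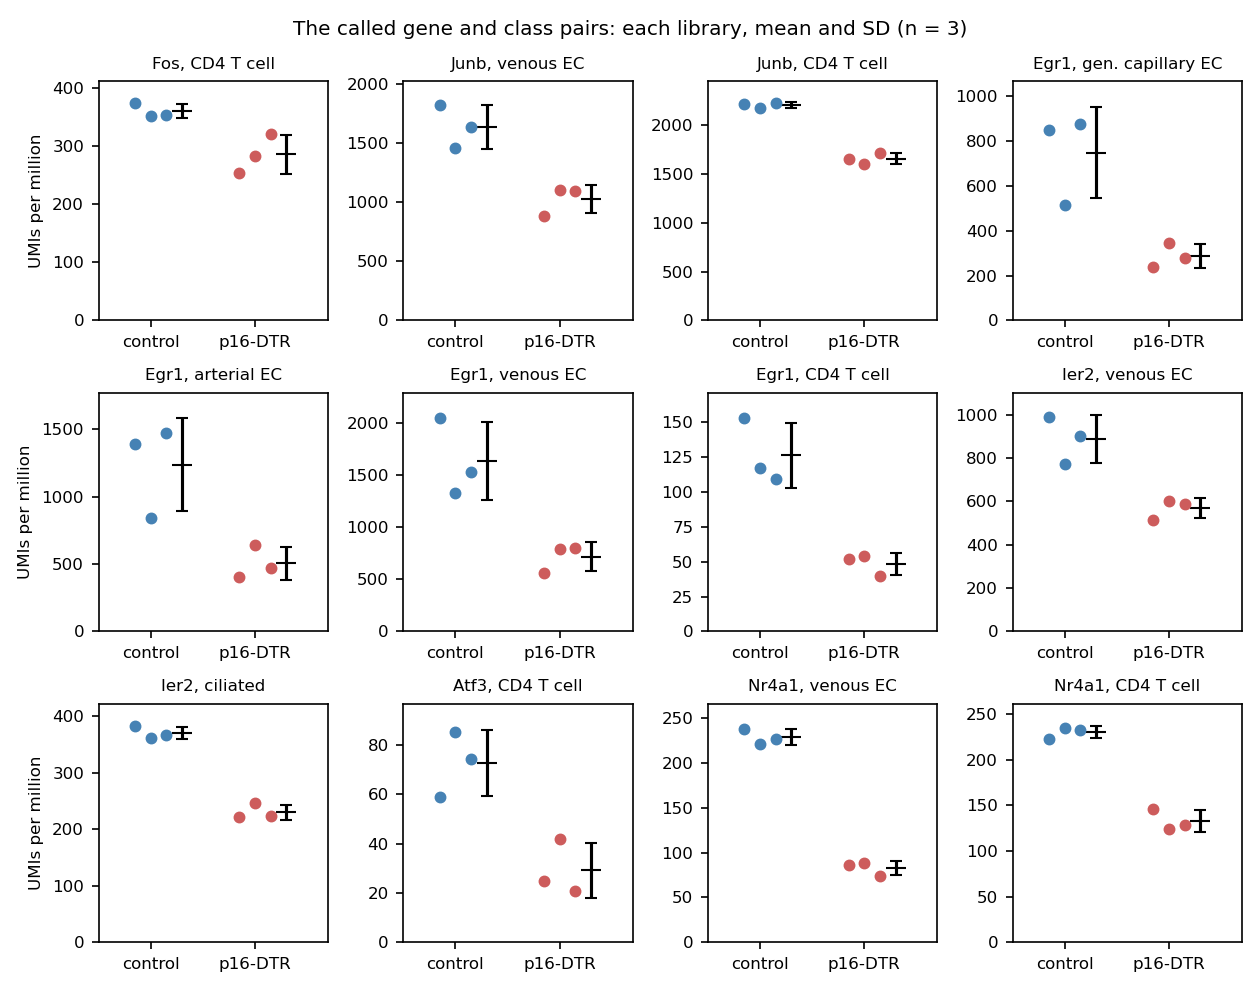
CPM in each library for the 12 called gene and class pairs (EC, endothelial cell), with points for libraries, and a dash with bars for the mean and SD (n = 3). In each panel the 3 p16-DTR-labelled libraries lie below the 3 controls.

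Other members were not called in venous cells. There Fos had 909, 1395 and 1314 CPM against 1664, 1492 and 1629 (log2 fold change −0.38, adjusted p = 0.216), and Jun 1762, 2293 and 2471 against 2490, 2221 and 2784 (−0.17, adjusted p = 0.534). Jund, at −0.13, and Fosb, at −0.33, overlapped between groups. Atf3 was below without overlap there at −0.70 (adjusted p = 0.117), as was Dusp1 at 800, 731 and 563 against 856, 992 and 890 (−0.36, adjusted p = 0.172).

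The share of cells holding a UMI was compared after thinning each cell to 5000 UMIs. In venous cells it was 30.3%, 31.7% and 24.3% for Nr4a1 in the p16-DTR-labelled libraries and 51.9%, 50.9% and 56.8% in controls. The unthinned means were 53.8% and 78.7%, at median depths of 17073 and 17314 UMIs. Thinned Egr1 shares were 52.9%, 61.2% and 54.8% against 90.7%, 76.7% and 82.2%. Venous cells with an Egr1 UMI held 5.97 of them on average after thinning against 9.31 in controls. In droplets free RNA also gives UMIs to cells that do not express a gene, so these are shares of cells with a UMI and not of expressing cells. No class lacks these genes by definition. The lowest thinned Egr1 share in controls, in CD8 T cells, averaged 12.9% there and 11.0% in the p16-DTR-labelled libraries, at median depths of 18670 and 17087 UMIs. The lowest thinned Nr4a1 share, in alveolar type 1 cells, averaged 7.60% in the p16-DTR-labelled libraries and 5.31% in controls. It rests on the 64 and 123 cells of that class that reached 5000 UMIs, while the class's median depths were 1429 and 1798 UMIs. Thinning left out 93 venous cells of the p16-DTR-labelled libraries and 73 of the controls.

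Among epithelial classes, ciliated cells had 1 call, Ier2, at 222, 246 and 223 CPM in the p16-DTR-labelled libraries and 383, 362 and 367 in controls. Groups were tight and did not overlap, with a log2 change of −0.68 (edgeR adjusted p = 0.00507, standard error 0.07), and the call held in 6 of 6 fits without a library but was lost with two-lineage cells kept (log2 fold change −0.60, adjusted p = 0.113). In this class 0.0827% of genes were called. All 10 log2 fold changes were negative there, with a median of −0.60, and 7 genes were below without overlap, as were 7.90% of all genes in the class. Junb, at 224, 358 and 253 against 440, 458 and 463, was among them (−0.69, adjusted p = 0.148). Heat shock chaperones were at higher summed levels in these cells. Their summed level over 13 genes was 11976 to 15879 CPM in the p16-DTR-labelled libraries and 9183 to 9849 in controls, and their part in the Ier2 result was not tested. In alveolar type 2 cells 4 log2 fold changes were negative and 6 positive, with a median of 0.02. Jun was at 1184, 1227 and 1067 against 1702, 1596 and 2146 (−0.59, adjusted p = 0.119), the smallest adjusted p there, and Dusp1 at 188, 206 and 190 against 141, 167 and 168 (0.35, adjusted p = 0.162).

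In the 4 mesenchymal classes no pair was called by edgeR. Of 40 pairs, 11 had an unadjusted p under 0.05 in the lower and 2 in the higher direction, and DESeq2 called 9, all lower. Over all tests in these classes the shares were 8.72% and 8.13% for the unadjusted p and 2.33% for DESeq2 calls lower. The smallest adjusted p was that of Nr4a1 in adventitial fibroblasts, at 459, 477 and 470 CPM against 684, 620 and 666 (log2 fold change −0.49 with a standard error of 0.06, edgeR adjusted p = 0.0597). Egr1 had 1318, 1402 and 1227 against 2088, 1676 and 1877 in alveolar fibroblasts (−0.49, adjusted p = 0.0607). Its levels in peribronchial fibroblasts, the class where it is highest, were 4832, 4325 and 4241 against 5885, 5696 and 5679 (−0.32, adjusted p = 0.0900). Groups did not overlap in any of these 3 pairs.

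Myeloid cells went the other way in sign. In classical monocytes, nonclassical monocytes and neutrophils, 25 of 30 log2 fold changes were positive, with a median of 0.13, and 8 pairs were above without overlap against 1 below. Of all tests in these classes 5.40% were above and 11.3% below without overlap. None of the 30 was called by edgeR. An unadjusted p under 0.05 was found for 11, all higher (4.97% of all tests), and DESeq2 called 4 higher (0.428%). Fos in classical monocytes had 2122, 2197 and 2323 CPM in the p16-DTR-labelled libraries and 1420, 1873 and 1770 in controls (log2 fold change 0.42 with a standard error of 0.10, edgeR adjusted p = 0.306). Dusp1 in neutrophils was at 2565, 2900 and 2760 against 1979, 2150 and 2433 (0.40, adjusted p = 0.131). Neither gene's groups overlapped.

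Whether the group difference itself differed between lineages was tested on counts summed per lineage, with the library as a block. The sums held every gated class of a lineage, including classes with too few cells to be tested above. Myeloid sums thus included macrophages, dendritic cells and basophils beside monocytes and neutrophils, and mesenchymal sums also included smooth muscle and mesothelial cells. Cell numbers of these added classes differed between libraries, and their part in the interaction calls was not tested on its own. The interaction was called for 4 of the 10 genes, against 1.24% of 20099 genes. They were Egr1 (adjusted p = 0.00931), Jun (0.0188), Dusp1 (0.0386) and Fos (0.0416). Endothelial Egr1 had 342, 430 and 389 CPM against 1116, 639 and 994, a log2 change of −1.19, and myeloid Egr1 265, 327 and 350 against 320, 263 and 322, one of 0.09. Neither change passed the test within its lineage (edgeR adjusted p = 0.0605 and 0.892), and neither did those of Fos, Jun and Dusp1, so the calls are of the difference between lineages. The gap, myeloid minus endothelial, was 1.28 on the log2 scale. For Fos the gap was 0.78, with 599, 787 and 772 against 962, 787 and 1156 in endothelial cells and 1924, 1972 and 2054 against 1432, 1578 and 1669 in myeloid cells. Endothelial Fos overlapped between groups and myeloid Fos did not.

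For Dusp1 the gap was 0.73, with endothelial means of 574 ± 93.2 and 736 ± 77.8 CPM and myeloid means of 1628 ± 58.3 and 1258 ± 75.4 (SD, n = 3 each, p16-DTR-labelled libraries first). For Jun it was 0.65, and its lowest log2 fold change was the epithelial one, −0.49. With each library given the same mix of classes within a lineage, 7 of 10 genes were called, against a background of 3.52%. Junb, Ier2 and Atf3 joined. Only the 20 tested classes entered that fit, so the set of classes changed as well as the mix. Leaving out 1 library gave 2 calls without p16-DTR replicate 1 (Egr1 and Dusp1), 2 without p16-DTR replicate 2 (Egr1 and Jun), 5 without control replicate 2, and 0 without p16-DTR replicate 3, control replicate 1 or control replicate 3. Without those libraries the smallest adjusted p was 0.101, 0.106 and 0.0644, each for Egr1. Its gap of 1.28 stayed between 1.21 and 1.40 over the 6 fits. The share of all genes called in these 6 fits was not counted, so their counts of calls have no background.

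**Figure D4:**
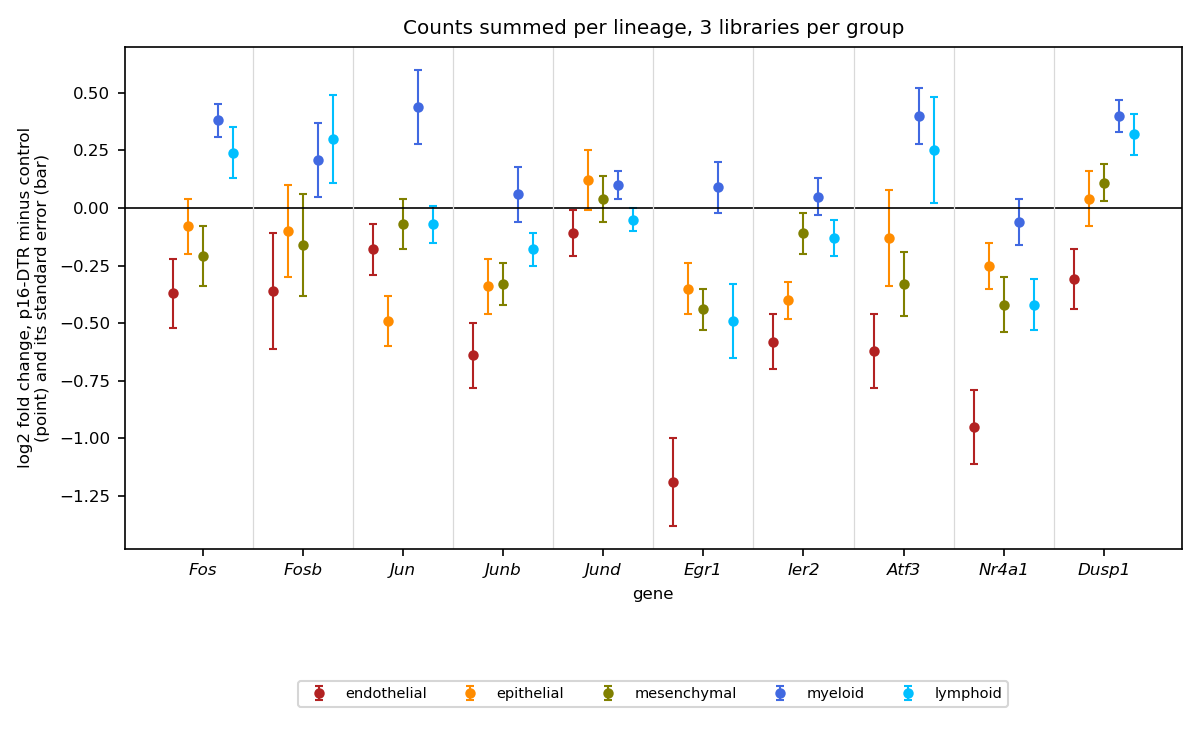
Log2 fold change (point) and standard error (bar) of each gene in counts summed over 5 lineages, p16-DTR-labelled libraries minus controls, n = 3 each. For Egr1 the endothelial point is at −1.19 and the myeloid one at 0.09; for Fos, Jun and Dusp1 they lie on opposite sides of 0.

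Dusp1 was the only one of the 10 genes with more positive than negative log2 fold changes over classes, 13 of 20, and a median of 0.15. It was above without overlap in 8 of 20 classes (7.89% of all tests) and below in 2 (11.7%). No class was called by edgeR. An unadjusted p under 0.05 was found in 8 classes in the higher (6.78% of all tests) and in 2 in the lower direction (7.20%), and DESeq2 called 6 higher (1.14%). In CD8 T cells it had 330, 308 and 290 CPM against 213, 258 and 244 (log2 fold change 0.37 with a standard error of 0.09, edgeR adjusted p = 0.190), and in CD4 T cells 468, 490 and 521 against 401, 413 and 424 (0.23, adjusted p = 0.0765). Egr1 was called lower in the same CD4 T cells.

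In CD4 T cells 5 of the 10 genes were called, where 4.87% of genes were. Egr1 had 52.3, 53.8 and 39.5 CPM in the p16-DTR-labelled libraries and 153, 117 and 109 in controls, a log2 change of −1.41 (edgeR adjusted p = 0.00290, standard error 0.16). Nr4a1, which T-cell receptor signalling induces, had 146, 124 and 128 against 223, 235 and 232 (−0.82, edgeR adjusted p = 0.00186, standard error 0.08). Junb had 1654, 1599 and 1713 against 2217, 2169 and 2222 (−0.44, edgeR adjusted p = 0.00515, standard error 0.06). In all 3 the groups were apart, and the calls held in 6 of 6 fits without a library. Atf3, at 24.8, 41.9 and 21.0 against 58.7, 85.3 and 74.3, had a log2 change of −1.34 (edgeR adjusted p = 0.0178, standard error 0.24) that was called in 4 of those 6 fits, and neither with two-lineage cells kept (adjusted p = 0.0590) nor when adjusted over all classes (0.0617). Fos, at 253, 282 and 321 against 374, 352 and 353, was the weakest call (−0.36, edgeR adjusted p = 0.0485, standard error 0.08), and it held in 1 of 6 and in 2 of 11 other alternatives.

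The make-up of the CD4 class moved with these genes. Cells with a UMI of Il17a, Il17f or Il23r, genes of the interleukin 17 programme, made up 32 of 214, 9 of 329 and 29 of 416 CD4 T cells in the p16-DTR-labelled libraries and 92 of 241, 136 of 312 and 125 of 393 (31.8% to 43.6%) in controls. Among other subset markers over the whole class, Foxp3, Ccr7 and Lef1 overlapped between groups, and Gzmk, Ifng and Cd44 did not. Gzmk, a granzyme of effector T cells, had 192, 251 and 113 CPM against 41.3, 51.2 and 45.4, Ifng (interferon gamma) 59.4, 77.1 and 88.4 against 43.3, 28.2 and 28.4, and the activation marker Cd44 351, 338 and 391 against 481, 556 and 493. Their part in the differences of the 10 genes was not tested. In control libraries the programme cells had 206 ± 22.5 CPM of Egr1, 349 ± 16.9 of Nr4a1 and 2742 ± 49.9 of Junb. The other CD4 T cells of the same libraries had 76.0 ± 31.2, 152 ± 13.4 and 1850 ± 100 (SD, n = 3 each). In the p16-DTR-labelled libraries the programme cells, 9 to 32 per library, had 50.0 ± 59.2 CPM of Egr1, 203 ± 135 of Nr4a1 and 1703 ± 346 of Junb (SD, n = 3), with means below those of the control programme cells. With the programme cells left out, none of the 5 calls remained, with 0.369% of genes called by edgeR. An unadjusted p was then under 0.05 for 5 of the 10 genes in the lower direction and for 1 in the higher, where 6.31% and 5.97% of all genes were. Egr1 was then at −0.74 (adjusted p = 0.289), Nr4a1 at −0.40 (0.193), Junb at −0.20 (0.304), Atf3 at −0.83 (0.230) and Fos at −0.16 (0.718), and Jun was at −0.62 with and −0.60 without those cells.

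**Figure D5:**
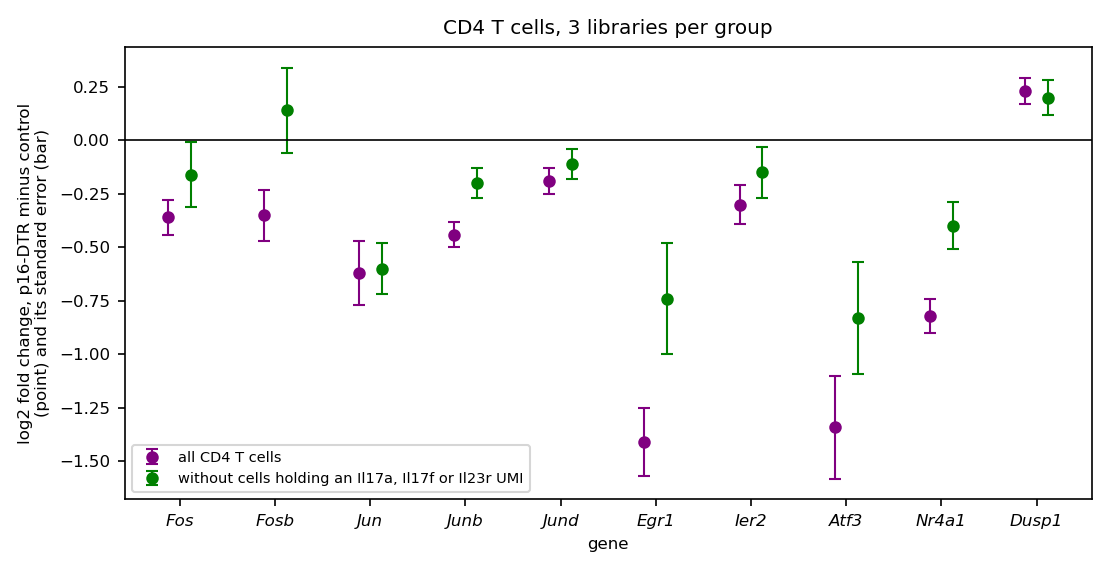
Log2 fold change (point) and standard error (bar) of the 10 genes in CD4 T cells, p16-DTR-labelled libraries minus controls, n = 3 each, with all cells and without cells holding an interleukin 17 programme UMI. Egr1 goes from −1.41 to −0.74 and Nr4a1 from −0.82 to −0.40, while Jun goes from −0.62 to −0.60.

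With all 20 classes weighted equally, each library's mean log2(CPM + 1) was compared by an exact two-sided permutation test, whose smallest p with 3 against 3 is 0.1. Egr1 was at 7.96, 8.16 and 8.20 in the p16-DTR-labelled libraries and 8.83, 8.44 and 8.64 in controls, a difference of −0.53. Nr4a1 differed by −0.43, Junb by −0.36 and Ier2 by −0.26. These 4 genes were below without overlap and reached the exact p of 0.1, where 16.8% of the 6245 genes tested in every class were below without overlap. The other 6 overlapped, with differences from −0.21 (Atf3, exact p = 0.400) to 0.08 (Dusp1, exact p = 0.600). Their sizes moved with single libraries: Atf3 was at −0.08 without control replicate 3 and −0.11 without p16-DTR replicate 1, and Dusp1 at −0.00 without control replicate 1. Fos and Fosb changed sign without p16-DTR replicate 1 (0.06 and 0.10), and Fos did without control replicate 3 (0.05).

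Related genes of the response were counted over the same 20 fits, in lists by role, where 0.834% of all tests were called. The lists were also chosen with earlier results of these data known. Other immediate early transcription factors were called lower in 10 and higher in 3 of 316 tests (4.11%), with a median log2 fold change of −0.04. A list of further immediate early genes and feedback genes, among them phosphatases, RNA-decay factors and kinases, was called lower in 22 and higher in 7 of 596 tests (4.87%, median −0.09). Other AP-1 and related leucine zipper factors had 5 lower and 3 higher calls of 251 (3.19%, median 0.00). Upstream kinases with the serum response and CREB factors had 2 lower and no higher calls of 395 (0.506%, median −0.01), a share below that of all tests.

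Of these lists, 5 genes were called lower in 3 classes each. Egr3, a relative of Egr1, had 7.61, 14.9 and 10.3 CPM against 51.0, 27.7 and 29.0 in venous cells (log2 fold change −1.69) and was also called in general capillary endothelial and CD4 T cells. Fosl2, a Fos family member, was at 45.0, 42.0 and 41.8 against 78.4, 74.9 and 88.8 in venous cells (−0.89), with calls in CD4 T and natural killer cells. Gadd45b, a stress-induced MAP kinase activator, was at 17.1, 20.6 and 18.5 against 70.8, 34.6 and 44.3 in venous cells (−1.38), with calls in CD4 T cells and alveolar fibroblasts. All 3 had groups apart in venous cells.

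Dusp5, a nuclear ERK phosphatase, was called in venous (−0.91), general capillary (−1.08) and CD4 T cells (−0.43). Its 2 endothelial calls were at mean levels of at most 17.7 CPM, and that in CD4 T cells at means of 374 and 495. Cyr61, a matricellular target of serum response factor, was called in alveolar fibroblasts, at 1642, 1598 and 1476 CPM against 2286, 2372 and 2152 (−0.50). Its calls in neutrophils and classical monocytes were at mean levels of at most 35.5 CPM.

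A few related genes were called higher. Klf10, a transforming growth factor beta inducible factor, had 95.1, 93.6 and 101 CPM against 44.7, 39.1 and 56.5 in venous cells (1.07) and was called higher in general capillary endothelial cells too (1.09), but lower in CD4 T cells (−0.66). Jdp2, a leucine zipper repressor of AP-1, was called higher in venous cells (0.61) and aerocytes (0.80). Dusp6, an ERK phosphatase, was higher in venous cells (0.81), where Dusp5 was lower. Dusp2 was called higher in CD4 T cells (1.44) and natural killer cells (0.71), and Ctgf in peribronchial fibroblasts (1.31), at 266, 231 and 230 CPM against 102, 113 and 87.0.

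Signs of dissociation were followed through the heat shock list. Its 13 genes summed to 3241, 4248 and 3037 CPM over all cells in the p16-DTR-labelled libraries and to 3000, 2989 and 3182 in controls, with p16-DTR replicate 2 the highest. Over the 20 fits 188 of 250 heat shock tests were positive, with a median of 0.23, 4 higher and 2 lower calls (2.40%). Glucocorticoid-induced genes, which stress hormones raise, had 138 of 202 positive tests, a median of 0.22, 5 higher and 3 lower calls (3.96%). For this list the deviations were 0.06, 0.05 and 0.25 against −0.30, −0.05 and −0.02 in controls. They were largest in p16-DTR replicate 3 and control replicate 1. The part of these lists in the differences of the 10 genes was not tested.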

How the data were processed

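Lungs of 3 mice labelled p16-DTR and 3 control mice were profiled with 10x GEM-X 3' chemistry, per the labels. The authors deposited unnormalized UMI counts, 1 matrix per library; the submitters' processing notes name Cell Ranger 8.0.1 and mm10, and settings that called cells are not given in the sources used here.

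Barcodes were kept from 300 genes and 500 UMIs upward, unless over 15% of UMIs were mitochondrial. Classes were gated per cell on marker scores, without the 10 genes: at least 3 markers, a score of at least 0.2 and a margin of at least 0.1 over the next class. T cells were split by Cd4, Cd8a or Cd8b1, and Trdc. No doublet caller was run; cells scoring at least 0.3 for another lineage were left out (468 to 657 per library). Counts were summed per library and class (20 classes, at least 50 cells in each library) and tested with edgeR 4.0.16 (quasi-likelihood, filterByExpr, TMM, Benjamini-Hochberg within a class at 0.05) in R 4.3.3. Standard errors of edgeR log2 fold changes, also in the figures, were derived as the absolute log2 fold change divided by the square root of the F statistic. Tables and figures were made with Python 3.11.15, pandas 2.3.3 and matplotlib 3.10.9. Positions come from GENCODE annotation of GRCm38.

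Genes are named by a fixed rule: the 10 genes, their highest, lowest and called classes, up to 5 per direction from related lists called in most classes, and the 5 genes most like Fos and Jun. The genes, lists and tests were chosen with earlier results of these data known. Alternatives were RLE or library size scaling, DESeq2 1.42.0, no low-count filter, the replicate number as a block, stricter cells or gates, two-lineage cells kept, equal cells, adjustment over all classes and each library left out. The fixed mix of classes, the CD4 cells without the interleukin 17 programme and the count without CD4 T cells were chosen after seeing the data. Labels give 1 library per mouse and no batch.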

Additional observations from a re-analysis of the deposited data

Results flagged for a closer look

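The group difference of 4 of the 10 genes differed between lineages by the interaction test of edgeR on lineage sums. The adjusted p was 0.00931 for Egr1, 0.0188 for Jun, 0.0386 for Dusp1 and 0.0416 for Fos. Relative to endothelial cells, the log2 fold change of Egr1 was higher by 0.82 in epithelial, 0.71 in mesenchymal, 1.28 in myeloid and 0.67 in lymphoid cells. For Dusp1 these gaps were 0.37, 0.39, 0.73 and 0.64, and for Fos 0.29, 0.14, 0.78 and 0.61. Jun was alone among the 4 in having a negative gap, −0.30 in epithelial cells.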

How the results depend on the processing

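Over all cells, DESeq2 called 1 of the 10 genes where edgeR called 0. The edgeR count was 0 in every fit without 1 library, and DESeq2 was not run without a library. Of 200 gene and class pairs, 12 were called in the main analysis, where 0.834% of all tests were. DESeq2 called 47 (37 lower, 10 higher) and 2.61% of all tests. Without a filter on low counts 61 were called (54 lower, 7 higher) and 2.15% of all tests. With CD4 T cells left out 7 were called, and the share of all tests was not counted. Without 1 library 6 to 18 were called, and 0.195% to 0.655% of all tests. With other scaling, cell filters, gates, equal cells or adjustment over all classes the count was 8 to 12, and 0.418% to 0.857% of all tests. The lineage interaction was called for 4 genes (1.24% of all genes) and for 7 at the fixed mix of the tested classes (3.52%). Without 1 library it was called for 0 to 5, and the share of all genes was not counted there. With the replicate number as a block 13 pairs were called, all lower, and 0.728% of all tests. Of these 13 pairs 6 were among the 12, and the cause was not tested. The 6 not called with the block were Egr1 in venous (adjusted p = 0.0893), general capillary (0.101) and arterial (0.110) endothelial cells, Junb (0.104) and Ier2 (0.0991) in venous cells and Fos in CD4 T cells (0.0739). Correlations of same-numbered libraries over all cells were 0.31, −0.02 and 0.32. In venous, general capillary and arterial endothelial cells and in CD4 T cells they lay between −0.32 and 0.05. With 3 values per comparison, whether the numbers pair the samples cannot be decided. None of the 12 called pairs changed sign in any alternative. Depth limits alveolar type 1 cells most, and with 3 libraries per group the exact test cannot go below 0.1.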
